A study of Mus musculus with 4 samples.

Results

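Mouse genes whose symbol is Zfp followed by a number were examined in embryonic stem (ES) cells with and without Snai1. The group was chosen by symbol (Zfp, digits and at most 1 letter, without Zfp42) and selected on expression level: each gene was read at the probe set with the highest mean over the 4 arrays, its brightest. Of 328 such genes on the array, 206 had a mean of 6 or more on the log2 scale and are described here, among 18193 genes in all and 9484 genes at that level. The other 122 fell below this mean.

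The cells were mouse ES cells grown with leukaemia inhibitory factor on feeder cells, with 2 arrays of Snai1 knockout cells, 2 of control cells and no treatment in either group. Snai1 encodes Snail, itself a zinc finger repressor, which binds E-boxes and is known for silencing epithelial genes. The controls are titled F/F, without an explanation in the labels, and their genotype reads control although knock out also stands in their source name. The labels call the arrays of a group biological replicates and do not say whether they were separate clones, cultures or days, so p-values measure only the spread between these arrays.

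Most Zfp genes encode proteins with tandem C2H2 zinc fingers, small folds held by a zinc ion that each read a few bases of DNA. Many of them also carry a KRAB domain, which recruits the corepressor Trim28 and, through it, the histone methyltransferase Setdb1. In ES cells this pathway is known for silencing endogenous retroviruses and for protecting imprints. The prefix also covers proteins of other kinds, such as the RNA-binding protein of Zfp36, and KRAB genes commonly lie in clusters of similar copies. The split into proteins with and without a KRAB domain was not analysed here.

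Snai1 was at 3.79 and 4.04 in the knockout arrays and at 4.41 and 4.69 in the control arrays (adjusted p = 0.0692, limma), all within the range of 24 Bacillus control probe sets (2.91 to 4.77), so it does not check the labels. The 8 ES cell markers were bright on every array, with mean values of 11.86 and 11.76 in the knockout against 11.22 and 11.34 in the control, and 4 of them passed as higher in the knockout. The 23 measured feeder fibroblast markers averaged 7.55 and 6.93 in the knockout (replicates 1 and 2), against 7.72 and 7.12 in the control. Their means ranged down to 4.05, and 17 were higher in replicate 1 in both groups. Between knockout and control 13 of the 23 lay below 0 (median -0.21). Only Ccl2 passed, as higher (0.77, adjusted p = 0.0456, limma), and Prrx1 had the largest fall without passing (-1.24, adjusted p = 0.0549). Control probe sets at the ends of the Actb transcript differed between the groups: the gap between the 3' and the 5' probe set was 1.11 and 0.80 on the knockout arrays, against 3.02 and 2.97 on the control arrays. The part of this gap, a sign of RNA quality or labelling, in the differences below was not tested.

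The E-box that Snail binds, CAGGTG or its reverse complement CACCTG, was looked for in the promoters of the Zfp genes. The windows were RefSeq's (GRCm38.p6), 250 bases before to 50 bases after each gene's start, and 171 of the 206 genes matched by gene ID. The motif lay in a window of 23 of these 171 genes (13.5%), against 20.4% of the matched genes at a mean of 6 or more and 22.6% of all genes in the table. Among Zfp genes past the threshold described below it lay in a window of 4 of 11 matched lower genes and of both matched higher genes. These 6 windows are shown, 5' to 3' on the gene's strand and with the E-box in capitals, because they are the promoters of the genes that moved in which the letters were found.
Zfp292 (chr4:34882899-34883198, minus strand): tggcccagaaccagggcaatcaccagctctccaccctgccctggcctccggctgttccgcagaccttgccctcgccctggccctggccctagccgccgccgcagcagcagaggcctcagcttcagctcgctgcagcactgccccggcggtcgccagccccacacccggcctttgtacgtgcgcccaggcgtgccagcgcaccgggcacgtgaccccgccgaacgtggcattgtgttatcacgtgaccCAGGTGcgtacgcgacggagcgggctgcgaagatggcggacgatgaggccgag
Zfp748 (chr13:67553103-67553402, minus strand): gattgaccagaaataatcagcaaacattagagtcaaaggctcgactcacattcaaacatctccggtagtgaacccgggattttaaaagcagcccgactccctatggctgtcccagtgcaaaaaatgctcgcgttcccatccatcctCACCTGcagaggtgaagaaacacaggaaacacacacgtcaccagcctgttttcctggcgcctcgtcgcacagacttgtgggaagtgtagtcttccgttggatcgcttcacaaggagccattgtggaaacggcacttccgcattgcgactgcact
Zfp953 (chr13:67360523-67360822, minus strand): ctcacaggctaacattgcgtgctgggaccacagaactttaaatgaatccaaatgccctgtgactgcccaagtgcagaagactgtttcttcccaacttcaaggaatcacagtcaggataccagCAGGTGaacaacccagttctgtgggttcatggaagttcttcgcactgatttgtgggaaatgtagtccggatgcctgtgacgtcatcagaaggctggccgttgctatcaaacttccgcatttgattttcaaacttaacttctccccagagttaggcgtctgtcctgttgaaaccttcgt
Zfp367 (chr13:64152324-64152623, minus strand): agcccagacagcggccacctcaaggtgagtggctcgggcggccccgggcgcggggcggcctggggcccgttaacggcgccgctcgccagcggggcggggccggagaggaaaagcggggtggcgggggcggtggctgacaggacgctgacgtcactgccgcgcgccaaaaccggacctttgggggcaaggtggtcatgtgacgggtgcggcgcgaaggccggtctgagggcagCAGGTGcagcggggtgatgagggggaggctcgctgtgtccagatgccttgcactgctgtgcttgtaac
Zfp687 (chr3:95015408-95015707, minus strand): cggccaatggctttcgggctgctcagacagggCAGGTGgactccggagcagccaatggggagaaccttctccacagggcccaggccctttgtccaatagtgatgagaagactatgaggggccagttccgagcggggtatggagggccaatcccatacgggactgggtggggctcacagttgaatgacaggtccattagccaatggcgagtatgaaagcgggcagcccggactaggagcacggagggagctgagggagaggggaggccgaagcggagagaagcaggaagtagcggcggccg
Zfp428 (chr7:24506837-24507136, plus strand): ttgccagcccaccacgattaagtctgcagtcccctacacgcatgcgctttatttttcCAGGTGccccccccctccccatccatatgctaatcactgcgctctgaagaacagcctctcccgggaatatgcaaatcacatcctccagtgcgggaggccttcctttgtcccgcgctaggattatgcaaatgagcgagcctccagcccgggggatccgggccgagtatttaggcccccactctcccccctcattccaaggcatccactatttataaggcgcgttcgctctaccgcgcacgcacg
The E-box of Zfp292 began at position -3 and that of Zfp367 at -18, counted from the start in the window shown, and the others began at -104 (Zfp748), -128 (Zfp953), -193 (Zfp428) and -218 (Zfp687). Zfp367 and Zfp687 each had another window without the motif (chr13:64153150-64153449 and chr3:95015189-95015488). For Zfp367 the window shown lies downstream of the other, and for Zfp687 upstream of it. So the letters occurred in windows of genes that were higher and of genes that were lower in the knockout. Of the 23 genes with the motif 17 had a difference below 0, with a median of -0.41, and of the 148 without it 112 did, with a median of -0.27. A match describes these letters and is not evidence of binding.

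The Zfp genes leaned towards lower values in the knockout, while few passed the threshold singly. Of the 206, 155 (75.2%) had a knockout mean below the control mean, and the median difference, knockout minus control, was -0.31 (log2). The median was -0.09, and 58.3% lay below 0, over the 9484 genes at that level. The middle range of the Zfp genes, from the lower to the upper quartile, ran from -0.50 to -0.01, against -0.37 to 0.20 over all genes at that level. Both knockout arrays lay below both control arrays for 113 Zfp genes (54.9%, against 39.3% over all genes at a mean of 6 or more) and above both for 27 (13.1%, against 24.3%). For the other 66 the groups overlapped. In RNA from whole cultures, fewer cells of a type and less RNA per cell cannot be told apart. The level at which a gene entered was a mean over both groups, and 7 of the 206 had 1 group mean under 6.

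At an adjusted p of 0.05 over all 18193 genes, 12 Zfp genes were lower and 3 higher in the knockout (limma). That is 15 of 206 (7.28%), near the 7.29% called among all genes at a mean of 6 or more and above the 4.14% called over all genes. By direction, 5.83% of the Zfp genes were called lower, against 3.77% of genes at that level, and 1.46% were called higher, against 3.51%. At an unadjusted p below 0.05, 81 Zfp genes (39.3%) were lower and 13 (6.31%) higher, against 24.7% and 14.2% of all genes at that level. None of the 206 passed when knockout replicate 1 or 2, or control replicate 1 or 2, was left out, where the lone array is taken to vary like the remaining pair. Few genes of any kind passed then: 0.264%, 0.169%, 0.485% and 0.0211% of genes at a mean of 6 or more, in that order, so these counts of 0 lie near the overall share.

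The count of Zfp genes called moved with the fit, and so did the share of all genes at that level. With an intensity trend in the fit 4 Zfp genes were lower and 3 higher (3.40%, against 4.42% of genes at a mean of 6 or more), and with a further quantile normalization 6 and 4 (4.85%, against 8.38%). With only genes at a mean of 6 or more tested 23 were lower and 5 higher (13.6%, against 12.9%). With the replicate number as a block 63 were lower and 10 higher (35.4%, against 28.8%), the setting that moved the count most. When all 34945 probe sets were tested singly, none of the brightest probe sets of the 206 genes passed (limma), against 1.14% of those of genes at that level. At an unadjusted p below 0.05, 74 of them were lower and 11 higher. Among the 202 other probe sets of the Zfp genes 2 passed, 1 of Zfp568 (higher) and 1 of Zfp729a (lower), against 0.79% of all probe sets.

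**Figure D1:**
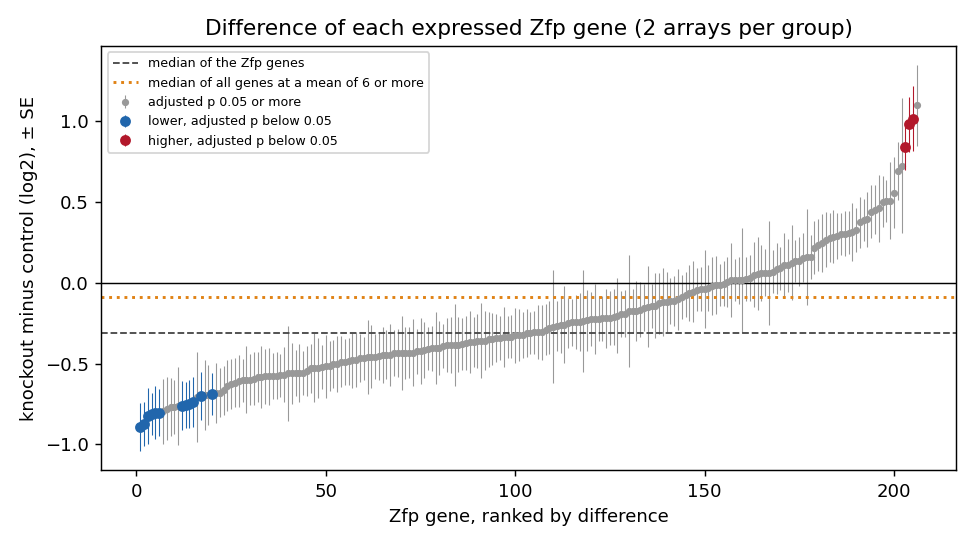
Difference of each of the 206 Zfp genes, knockout minus control (log2) with limma's standard error, ranked from the lowest to the highest. Blue points mark the 12 genes called lower and red points the 3 called higher; the dashed line is the median of the Zfp genes (-0.31) and the dotted line that of all genes at a mean of 6 or more (-0.09).

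Zfp292, which encodes a large zinc finger protein linked to neurodevelopmental disorders in people, had the largest fall. It was at 8.96 and 8.87 in the knockout arrays and at 9.68 and 9.93 in the controls, which differ by -0.89 ± 0.15 (SE, adjusted p = 0.0352). Both knockout arrays were low and close together, and the groups did not overlap. Another probe set of the gene differed by -0.86 and a further one by -0.998, but the dimmest of its bright probe sets differed by 0.08, with control arrays at 8.70 and 7.22. Zfp654 was at 7.10 and 6.99 in the knockout and at 7.87 and 7.96 in the control, a difference of -0.87 ± 0.13 (SE, adjusted p = 0.0328), the smallest adjusted p among the Zfp genes. It is read by a probe set that Affymetrix marks as shared between transcripts.

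Zfp942 and Zfp944 belong to a single gene neighbourhood, with Zfp948 further along it. Zfp942 was at 7.20 and 7.17 in the knockout and at 7.99 and 8.01 in the control (-0.81 ± 0.13, SE, adjusted p = 0.0340). Zfp944 was at 6.52 and 6.59 against 7.25 and 7.23 (-0.69 ± 0.13, SE, adjusted p = 0.0429). In both genes the replicates of a group lay at most 0.07 apart, and no knockout array reached a control array, as in every Zfp gene past the threshold. A second bright probe set of Zfp944 did not show this fall: it was at 6.64 and 6.71 in the knockout and at 6.51 and 6.54 in the control. Zfp948 was at 6.26 and 6.63 in the knockout and at 7.18 and 7.32 in the control (-0.80 ± 0.17, SE, adjusted p = 0.0467).

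Of the other lower genes, Zfp318, a nuclear protein known for controlling the choice between IgM and IgD in B cells, was at 8.35 and 8.03 in the knockout and at 8.97 and 8.88 in the control. Its difference was -0.74 ± 0.16 (SE, adjusted p = 0.0487). A second bright probe set was at 7.64 and 7.43 against 7.81 and 7.18, with overlapping groups and a difference of 0.03. Zfp367 fell from 10.14 and 9.94 in the control to 9.42 and 9.26 (-0.70 ± 0.15, SE), and Zfp850 from 9.43 and 9.23 to 8.53 and 8.62 (-0.75 ± 0.14, SE). Neither had an array of 1 group inside the range of the other, as in every Zfp gene past the threshold. The remaining 4 were Zfp748 (-0.83), Zfp959 (-0.80), Zfp955a (-0.76) and Zfp953 (-0.75). Their knockout arrays lay between 6.70 and 9.44, replicate 1 being the lower of the pair in each, and their adjusted p ran from 0.0401 to 0.0494.

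The 3 higher genes differed in how well their controls agreed. Zfp687, which works with Zfp592 and Zfp532 in a chromatin-bound complex with Zmynd8, was at 7.42 and 7.45 in the knockout and at 6.47 and 6.72 in the control, a difference of 0.84 ± 0.15 (SE, adjusted p = 0.0383). Its partners Zfp592 and Zfp532 differed by -0.07 and -0.57, and neither passed. Zfp704 rose from 6.40 and 6.01 in the control to 7.14 and 7.23 (0.98 ± 0.17, SE, adjusted p = 0.0377). Zfp428 rose from 8.13 and 8.70 to 9.40 and 9.46 (1.02 ± 0.20, SE, adjusted p = 0.0441). In all 3 the knockout arrays lay closer together than the control arrays. The control arrays were 0.25 apart in Zfp687, 0.40 in Zfp704 and 0.57 in Zfp428. The largest difference of all belonged to Zfp934, named here after its values were seen, at 7.88 and 7.72 in the knockout and at 7.10 and 6.30 in the control (1.10 ± 0.25, SE), which did not pass (adjusted p = 0.0545).

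**Figure D2:**
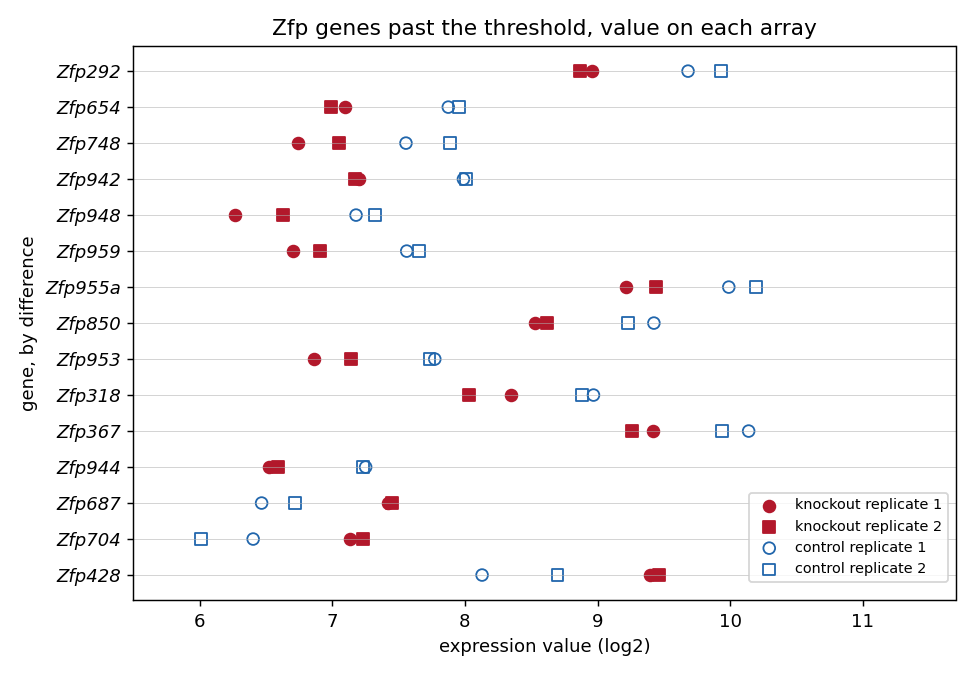
Expression values (log2) of the 15 Zfp genes past the threshold on each of the 4 arrays, ordered from the largest fall (Zfp292) to the largest rise (Zfp428). Filled red marks are knockout arrays and open blue marks control arrays, circles replicate 1 and squares replicate 2; in none of the 15 do the groups overlap, which passing this threshold with 2 arrays per group brings with it.

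Among Zfp genes known for silencing retroviruses or keeping imprints none passed at its brightest probe set. Of the 8 genes on this list 7 were measured and 5 had a mean of 6 or more, and these 5 had differences from -0.39 to -0.27. Zfp445, which protects imprints together with Zfp57, was at 10.20 and 10.35 in the knockout and at 10.68 and 10.65 in the control (-0.39 ± 0.14, SE, adjusted p = 0.133). Its groups did not overlap, but a dimmer probe set differed by 0.74, with arrays from 5.89 to 7.62. Zfp932, a repressor of endogenous retroviruses, was at 9.65 and 10.13 against 10.13 and 10.38, the groups not overlapping but knockout replicate 2 and control replicate 1 being equal to 2 decimals. Zfp819 was at 8.03 and 8.25 in the knockout and at 8.34 and 8.69 in the control. Zfp568, which represses a placental Igf2 transcript, differed by -0.34 at its brightest probe set, at 10.67 and 10.20 in the knockout against 10.68 and 10.88 in the control. A dimmer probe set of Zfp568, with a mean of 5.82, went the other way: it was at 6.72 and 7.33 against 4.56 and 4.66, a difference of 2.42 ± 0.22 (SE) that passed when all probe sets were tested singly (adjusted p = 0.0285, limma). The direction of this gene therefore depends on the probe set. Zfp809, which recognises the primer binding site of murine leukaemia virus, differed by -0.27. Zfp57 itself fell just short of the level, at 5.80 and 5.92 in the knockout and at 5.49 and 5.91 in the control.

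Among 8 expressed Zfp genes linked to stem cell transcription, 6 differences lay below 0 and none passed (median -0.16). These counts are near the shares over all 206 Zfp genes, 75.2% below 0 and 7.28% called. Zfp322a, a transcription factor of the ES cell state, was at 7.69 and 8.01 in the knockout and at 8.59 and 8.26 in the control (-0.58 ± 0.18, SE, adjusted p = 0.100), and its other bright probe set differed by -0.27. Zfp217, a partner of the histone demethylase Kdm1a, was at 8.51 and 8.17 against 8.87 and 8.90 (-0.55 ± 0.16, SE, adjusted p = 0.0864). Zfp462, a partner of H3K9 methyltransferases, was at 9.93 and 9.64 against 10.35 and 10.19. At these probe sets the groups of the 3 genes did not overlap. A second bright probe set of Zfp462 was at 8.84 and 9.004 against 9.19 and 8.24, with overlapping groups and a difference of 0.21. Zfp281, a zinc finger factor that acts in the exit from pluripotency, was at 9.82 and 9.72 in the knockout and at 10.13 and 9.62 in the control, overlapping. Its other probe set, nearly as bright, separated the groups, at 9.39 and 9.44 against 9.77 and 9.79 (-0.36 ± 0.13, SE). Zfp296 differed by -0.02, with replicate 1 lower than replicate 2 in each group (7.42 and 7.75 against 7.43 and 7.78).

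Among 7 expressed developmental regulators Zfp292 alone passed, where 7.28% of all 206 Zfp genes did, so this count rests on 1 gene. Zfp110, a neurotrophin receptor-interacting factor, was at 9.74 and 10.02 in the knockout and at 10.39 and 10.59 in the control (-0.61, adjusted p = 0.0712). Zfp703, a corepressor studied in the mammary gland, was at 6.90 and 5.90 in the knockout and at 6.93 and 6.22 in the control, so its replicates differed far more than its groups. Zfp148 showed probe sets that disagreed. Its brightest was at 7.71 and 7.54 in the knockout and at 7.66 and 6.14 in the control (0.73 ± 0.42, SE, adjusted p = 0.354), while its 4 other bright probe sets differed by -0.99, -0.79, -0.58 and -0.35. The direction of this gene therefore depends on the probe set.

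Of 9 partners of chromatin enzymes Zfp687 rose, and the other 8 lay below 0 without passing. For comparison, 75.2% of all 206 Zfp genes lay below 0 and 7.28% were called. Zfp644, which recruits the H3K9 methyltransferases G9a and GLP, was at 9.20 and 9.47 in the knockout and at 9.83 and 10.01 in the control (-0.58, adjusted p = 0.0734), and a second bright probe set was at 8.997 and 8.98 against 9.67 and 9.74. Zfp518a was at 8.68 and 8.97 against 9.32 and 9.53 (-0.60, adjusted p = 0.0734), and its paralogue Zfp518b differed by -0.35.

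None of the 10 expressed genes that act on RNA, ribosomes or the spindle passed, and 7 lay below 0 (median -0.22). Over all 206 Zfp genes the shares were 7.28% called and 75.2% below 0. Zfp638, which silences unintegrated retroviral DNA, was at 10.04 and 10.03 in the knockout and at 10.57 and 10.65 in the control, a difference of -0.57 ± 0.13 (SE, adjusted p = 0.0559). Zfp622, a ribosome assembly factor, was at 11.97 and 11.88 in the knockout and at 12.39 and 12.40 in the control (-0.47 ± 0.13, SE, adjusted p = 0.0838). Its next probe set, at 8.98 and 8.88 against 8.72 and 9.10, did not separate the groups, and a further one differed by -0.60. Zfp36, tristetraprolin, which speeds the decay of AU-rich messenger RNAs, went the other way, at 7.99 and 8.09 in the knockout and at 7.11 and 7.58 in the control (0.69 ± 0.18, SE, adjusted p = 0.0703). Zfp207, a spindle assembly factor, differed by -0.22 and the RNA-binding protein gene Zfp106 by -0.26. Together with Zfp622, the latter pair and Zfp982 (11.53 and 11.99 against 11.89 and 12.06) and Zfp979 (10.68 and 11.14 against 11.12 and 11.19) had the brightest probe sets of the Zfp genes, an order that also reflects the probes, and none of these 5 passed.

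**Figure D3:**
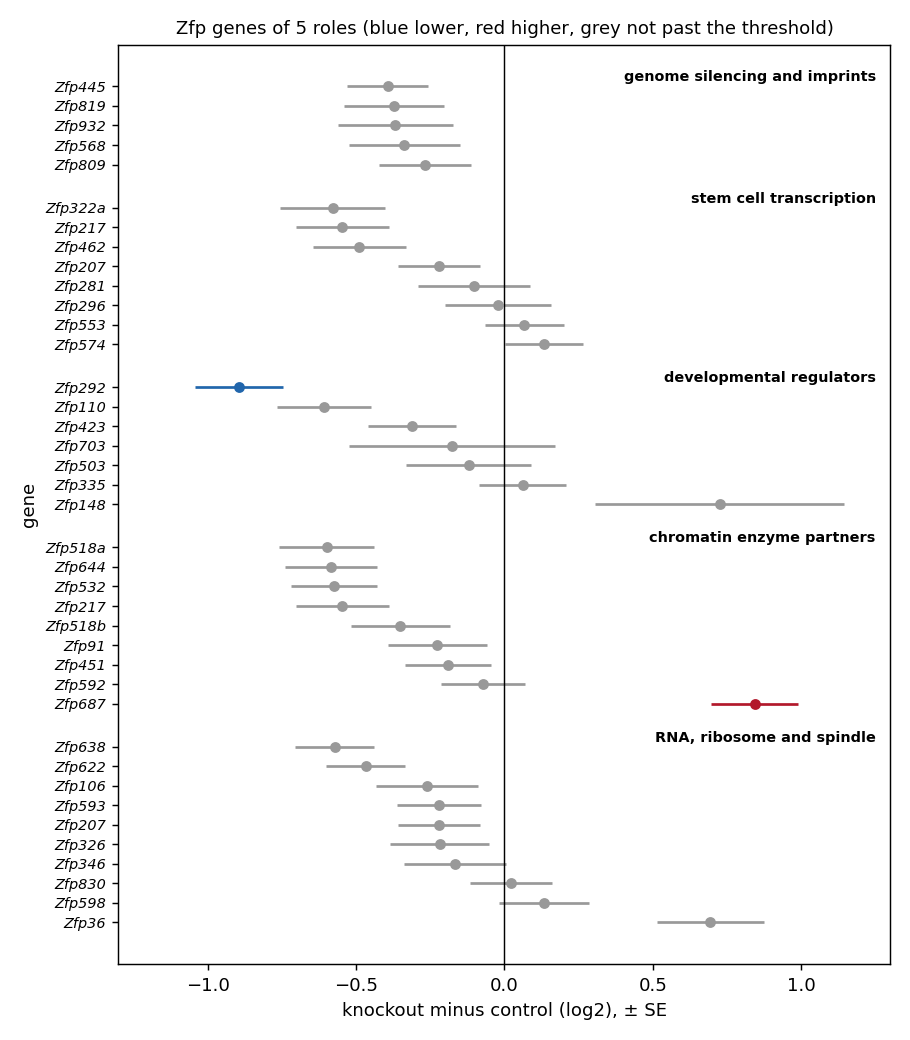
Differences (knockout minus control, log2, with limma's standard error) of the expressed Zfp genes on 5 lists of roles. Zfp292 (blue) is called lower and Zfp687 (red) higher; grey points did not pass, and Zfp148 has the widest error (0.42). Zfp207 and Zfp217 appear on 2 lists each.

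The machinery that KRAB zinc finger proteins recruit was measured for 28 genes, all at a mean of 6 or more. Of these 1 rose and 1 fell, and 14 lay below 0, with a median of -0.01. Over all genes at a mean of 6 or more 3.51% were called higher and 3.77% lower, so 1 of 28 in each direction is near the overall share. Trim28, the central corepressor, was at 13.24 and 13.12 in the knockout and at 13.22 and 13.25 in the control (-0.06 ± 0.13, SE). Setdb1 was at 9.27 and 9.14 against 8.93 and 9.32 (0.08 ± 0.17, SE), with overlapping groups. Mta2, a subunit of the NuRD remodelling complex, rose from 7.78 and 8.12 in the control to 9.52 and 9.29 (1.46 ± 0.17, SE, adjusted p = 0.0186). Tasor, a subunit of the HUSH silencing complex, fell from 8.80 and 9.09 to 7.88 and 8.23 (-0.89 ± 0.18, SE, adjusted p = 0.0453). The Tasor call was lost with an intensity trend, with probe sets averaged or tested singly, and with the trend with gene span removed. Neither passed with any 1 array left out.

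Neighbouring Zfp genes were compared, taking as neighbours those with at most 3 other protein-coding genes between them in RefSeq's gene order (GRCm38.p6), a limit set after the values were seen. By this rule 105 of the 206 lay in 34 runs of 2 or more, and 101 stood alone. The median difference was -0.38 in runs and -0.23 alone, and the groups separated downwards for 61 (58.1%) and 52 (51.5%). The 46 genes in the 7 runs of 4 or more had a median of -0.42, and 5 of the 12 lower calls lay there. That is 10.9% of these genes called lower, against 6.67% in all runs, 4.95% alone and 3.77% of all genes at a mean of 6 or more. These shares rest on few calls, and their difference was not tested.

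The longest run held 14 genes, from Zfp51 and Zfp53 to Zfp946 and Zfp945, and 13 of them lay below 0, with a median of -0.54. Zfp942, Zfp944 and Zfp948 passed in it, and Zfp52, at 7.36 and 7.71 in the knockout and at 8.21 and 8.41 in the control (-0.77, adjusted p = 0.0508), and Zfp820, at 5.91 and 6.22 against 6.71 and 6.78 (-0.68, adjusted p = 0.0534), came close. In 11 of the 14 both knockout arrays lay below both controls. The same held for 54.9% of the 206 Zfp genes and for 39.3% of the 9484 genes whose mean reached 6. Differences below 0 made up 75.2% and 58.3% of these sets, in that order. Zfp945 was the gene of the run that did not lie below 0, at 6.13 and 7.11 in the knockout and at 6.84 and 6.28 in the control. Zfp229 and Zfp760 differed by -0.24 and -0.26 but varied more within the groups, Zfp229 being at 7.52 and 8.35 in the knockout and at 7.80 and 8.54 in the control. In a run of 4, Zfp871, Zfp799, Zfp472 and Zfp763, each gene lay lower (-0.71 to -0.41) and none passed, though a second bright probe set of Zfp871 was higher, at 7.30 and 8.27 against 6.41 and 5.95. Another run of 4, with Zfp398, Zfp212, Zfp777 and Zfp746, ran the other way, with a median of 0.25 and 1 gene below 0.

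Close copies did not always match. Zfp955a was at 9.22 and 9.44 in the knockout and at 9.99 and 10.19 in the control, while Zfp955b was at 8.79 and 9.48 against 9.02 and 9.23, a difference of 0.01 ± 0.23 (SE). Zfp729a and Zfp729b differed by -0.68 and -0.41, with adjusted p of 0.0760 and 0.127. A dimmer probe set of Zfp729a, with a mean of 5.82, was at 5.12 and 5.24 against 6.28 and 6.62 (-1.27 ± 0.16, SE, adjusted p = 0.0439 with all probe sets tested singly in limma). Such copies share sequence, and 13 of the 206 genes (6.31%) were read by probe sets that Affymetrix marks as able to cross-hybridise (x) and 10 (4.85%) by probe sets shared between transcripts (s). The median difference was -0.22 in the first and -0.45 in the second, and -0.31 in the 183 genes read by probe sets with neither mark. How far a signal in a cluster comes from 1 gene or from its neighbours cannot be told apart here.

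Probe sets of the same gene often disagreed. The 206 genes had 408 probe sets, 93 genes having only 1. Of 58 further probe sets at a mean of 6 or more, in 41 genes, 34 had the sign of the brightest and 24 the opposite sign. Of the 15 called genes 3 had such probe sets, and 2 of these 5 probe sets, both of Zfp292, had the same sign. With the mean over all of a gene's probe sets, dim ones included, 3 Zfp genes were lower and 2 higher (2.43%, against 3.17% of genes at a mean of 6 or more), and the median over the Zfp genes was -0.20.

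The Zfp genes spanned a median of 18.1 kb of the genome, against 23.3 kb for all genes at a mean of 6 or more. Over all such genes the difference fell with span, from a median of 0.11 in the class with the shortest spans to -0.28 in the class with the longest, of 4 classes of like size. For the Zfp genes the median was -0.11 for the 32 genes up to 10.1 kb, -0.37 for the 99 genes from 10.1 to 23.3 kb (against -0.04 for all genes), -0.35 for the 52 genes from 23.3 to 52.4 kb (against -0.19) and -0.31 for the 23 longer genes. When the trend of each array with span and mean level was removed, 8 Zfp genes were lower and 4 higher (5.83%, against 5.65% of genes at that level), 9 of the 15 calls being kept, and the median was -0.26 against -0.04 for all genes at that level. Medians of the Zfp genes were below 0 at each level of expression: -0.24 for the 60 genes with a mean from 6 to 7, -0.33 for the 64 from 7 to 8, -0.25 for the 40 from 8 to 9, -0.33 for the 27 from 9 to 10 and -0.34 for the 15 at 10 and over. Over all genes the medians at these levels were below 0 too, at -0.02, -0.09, -0.10, -0.16 and -0.12, in that order.

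**Figure D4:**
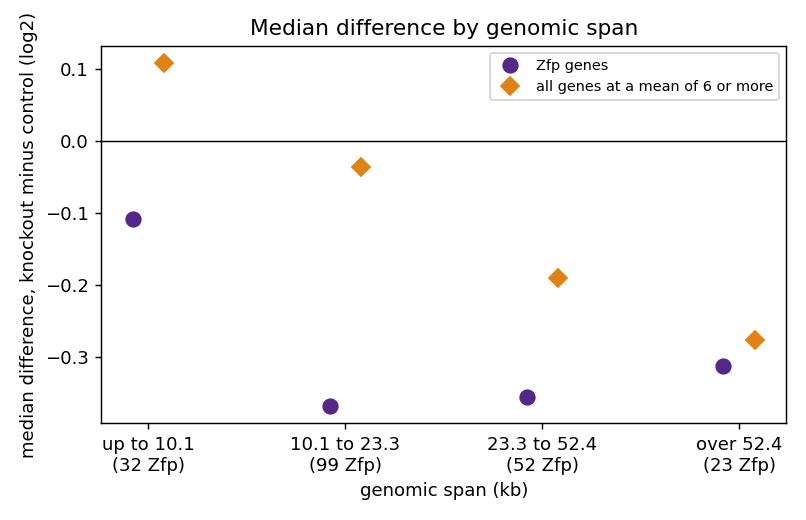
Median difference (knockout minus control, log2) by genomic span in kb, for the Zfp genes (circles) and all genes at a mean of 6 or more (diamonds); the 4 span classes hold about equal numbers of the latter. The Zfp genes lie lower in each class, most clearly from 10.1 to 23.3 kb (-0.37 against -0.04) and least in the longest class (-0.31 against -0.28).

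Array by array, the 206 Zfp genes had medians of 7.44 and 7.57 in the knockout (replicates 1 and 2), against 7.61 and 7.87 in the control. Knockout replicate 1 was the lowest array for 100 genes and control replicate 2 the highest for 119. Replicate 1 lay below replicate 2 in both groups for 112 genes (54.4%), against 32.3% of genes at a mean of 6 or more, and above it in both for 27 (13.1%, against 26.1%). The feeder markers ran the other way, with averages of 7.55 and 7.72 in the first replicates and 6.93 and 7.12 in the second, and their part in this pattern was not tested. Genes in runs showed the pattern in 73 of 105 (69.5%) and genes standing alone in 39 of 101 (38.6%). For 58 of the 206 genes the mean gap between replicates 2 and 1 was larger than the difference between knockout and control. The lean was seen with each array left out: the median was -0.25 and -0.35 without knockout replicate 1 or 2 and -0.38 and -0.22 without control replicate 1 or 2, against -0.11, -0.07, -0.14 and -0.05 over genes at a mean of 6 or more.

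**Figure D5:**
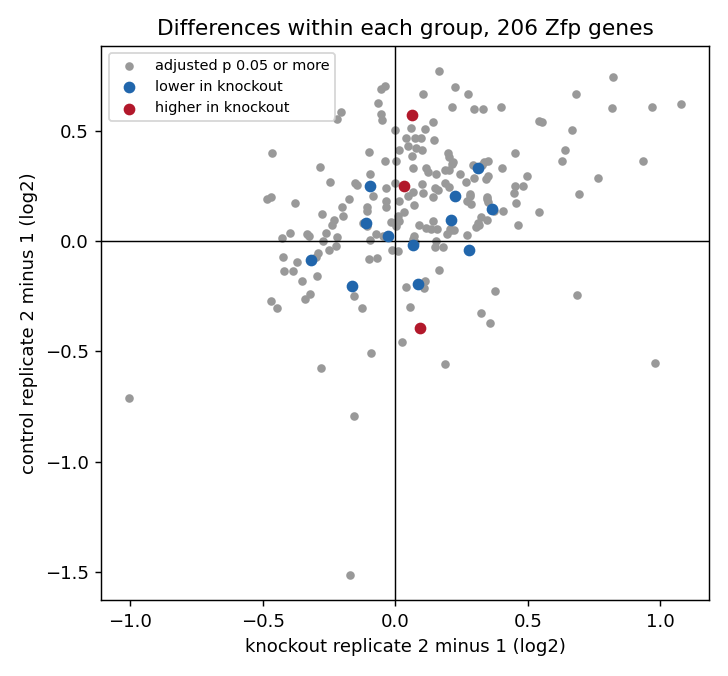
Difference between replicate 2 and replicate 1 within the knockout (horizontal axis) and within the control (vertical axis), both log2, for the 206 Zfp genes; blue and red points are the genes called lower and higher in the knockout. The upper right field holds the 112 genes in which replicate 1 was lower in both groups and the lower left field the 27 in which it was higher.

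At the edge of the level used to choose the genes, Zfp661 (5.98 and 6.02 in the knockout, 5.78 and 6.25 in the control), Zfp13 (6.18 and 6.19, 5.84 and 5.93) and Zfp82 (5.90 and 5.80, 6.03 and 6.44) lay just inside. Zfp618 (5.90 and 5.52, 6.40 and 6.15), Zfp952 (5.73 and 5.79, 6.03 and 6.30) and Zfp2 (5.62 and 5.91, 6.01 and 6.30) lay just outside. Among the 122 Zfp genes below the level the median difference was -0.12, against 0.0072 over all 8709 genes below it. Of the 122, 4 passed (3.28%, against 0.723% of all genes below the level), named here after their values were seen: Zfp119a (-0.80), Zfp39 (-0.80) and Zfp758 (-0.73) were lower and Zfp668 (0.75) higher in the knockout. The 2 sets were not matched in level: the median of the gene means was 4.83 in the 122 and 4.28 in all 8709.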

How the data were processed

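The deposited values were log2 expression values for 45101 probe sets on each of 4 Affymetrix arrays, and the authors' processing notes name RMA and limma without a version. Neither their order nor a genome build was given in the sources used here. GEO's platform annotation gave the gene names, and 34945 had 1 gene symbol after 64 control probe sets were set aside. Of these, 34741 matched a RefSeq gene (GRCm38.p6) by gene ID and 0 symbols changed. Knockout was compared with control in limma 3.58.1 (R 4.3.3) over all 18193 genes, with Benjamini-Hochberg adjustment and a threshold of 0.05. Differences are knockout minus control with the moderated standard error (SE), on 2 residual and 5.31 prior degrees of freedom. An exact permutation test of 2 arrays against 2 cannot go below 0.333. The number of arrays limits the precision. The script was tested on simulated data.

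The Zfp genes, the lists of roles and the tests were chosen with earlier results of these data known. Named were the 12 largest falls and rises past the threshold, the 5 brightest genes, 3 genes on each side of the level, and for each list the genes past the threshold or otherwise up to 3 with the largest difference. Other genes named serve as comparisons or were chosen after their values were seen. Protein sequences were not used here.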

Additional observations from a re-analysis of the deposited data

How the results depend on the processing

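Of the 15 Zfp genes past the threshold (12 lower, 3 higher), the number of calls moved with the error model, the probe sets and the arrays, while the median over the 206 genes stayed between -0.38 and -0.20 in the settings run. The number lower was 4 with an intensity trend, 6 after a further quantile normalization, 23 when only genes at a mean of 6 or more were tested, 3 with each gene's probe sets averaged, and 0 at the brightest probe sets with all probe sets tested singly. The number higher was 5 when only genes at a mean of 6 or more were tested and 0 at the brightest probe sets tested singly. With any 1 array left out neither count held, and the median over the 206 genes ran from -0.38 to -0.22. In the corepressor list, where 1 gene was higher and 1 lower, 2 were higher after the further quantile normalization, with only genes at a mean of 6 or more or of 5 or more tested and with probe sets averaged, and 3 with the span trend removed. There 0 were lower with the intensity trend, with probe sets averaged or tested singly and with the span trend removed, and with any 1 array left out 0 were higher and 0 lower. The cause of these changes was not tested, beyond fewer genes or arrays entering the fit. No named gene past the threshold changed sign.

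The labels give both groups replicates 1 and 2 without saying what the numbers share. The differences between replicates 1 and 2 correlated between the groups, with 2 pairs only. The correlation was 0.29 over all genes, 0.41 over genes at a mean of 6 or more and 0.35 over the Zfp genes. With the replicate block 63 Zfp genes were lower and 10 higher, and in the corepressor list 6 were lower and 5 higher, while 3092 genes passed in all against 754 without it. Of genes at a mean of 6 or more 28.8% passed with the block, against 7.29% without it.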
